A study of Mus musculus with 6 samples.

Results

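The genes described here copy the genome and supply its building blocks. They cover the licensing of replication origins, the MCM helicase, origin firing, the replicative DNA polymerases, the sliding clamp and its loader, single-strand binding, ligation, deoxynucleotide synthesis and the chromatin factors that follow the fork. The 51 members were chosen by name for these roles, and each was read from its brightest probe set among those annotated to 1 gene symbol. Of the 51, 50 were found among 18194 genes. Chaf1a was not analysed here.

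The samples were endothelial cells (ECs) from lungs of female NSG mice, an immunodeficient strain that lacks mature T, B and NK cells. The mice were 6 to 8 weeks of age and received MDA231-LM2 cells by intravenous injection. These cells were derived from MDA-MB-231, a human line of triple-negative breast cancer, and colonize the lung efficiently. They carried a triple reporter with viral thymidine kinase, GFP and firefly luciferase. A hairpin RNA in the cells was either a control (shControl) or directed at TNC (shTNC), the gene of the matrix protein tenascin C, and lungs were taken after 20 days. CD31-positive cells were sorted from whole lungs after removal of cells with CD45, CD11b, EpCAM, CD140a/b or GFP, so that ECs away from metastatic nodules were included. All 6 samples came from metastatic lungs, and lungs without metastases were not part of the comparison. There were 3 biological replicates per group with 1 array each, which limits the precision of every value. The hairpin targeted the human gene in cancer cells that the sort removed, so the mouse arrays do not check the knockdown.

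A dividing cell first loads the MCM helicase onto origins in G1, under the control of the origin recognition complex, Cdc6, Cdt1 and the Cdt1 inhibitor geminin. At the start of S phase kinases and accessory factors convert the loaded ring into an active helicase, and polymerases then extend both strands behind it. Genes of this machinery are known targets of E2F transcription factors, and in adult lung most ECs are quiescent, with low expression of S-phase genes. The comparison asks how these genes differed in lung ECs when the cancer cells were depleted of TNC. The paper reports that TNC knockdown also reduced colonization of the lung by these cells. The metastatic load of these lungs was not among the data used here. Its part in the differences was not tested and cannot be told apart from that of TNC.

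Most of these genes had lower values in ECs from shTNC lungs. The mean was lower in 46 of 50 genes, where 58.3% of all genes had a lower mean. Rrm2 and Tk1, which supply deoxynucleotides, Pole, the leading-strand polymerase, and Uhrf1, which maintains DNA methylation, were lower by more than 0.5 on the log2 scale, as were 0.973% of all genes. The median difference of shTNC minus shControl was -0.18 on the log2 scale, where the median of all genes was -0.030, and single genes ranged from -0.79 to 0.19. The genes with a higher mean in shTNC were Mcm6 at 0.19, Rfc1 at 0.17, Pold2 at 0.091 and Orc5 at 0.086. Mcm6 and Rfc1 also had dimmer probe sets that were lower.

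No probe set on the array passed an adjusted p of 0.05 in limma, so the share past the threshold was 0% of 45101 probe sets, with 5846 at an unadjusted p under 0.05. The smallest adjusted p was 0.13 over all probe sets and 0.18 among the genes of replication. At an unadjusted p under 0.05, 17 of the 50 were lower, where 7.12% of all genes were, and 0 were higher, where 4.54% of all genes were. All 50 lay above the level set by olfactory receptor probe sets, and among all genes above that level 7.42% were lower at the same p. At an adjusted p under 0.25, 7 were lower, where 0.962% of all genes were. These were Rrm2, Pole, Uhrf1, Fen1, Hells, Mcm5 and Mcm10. That count was 0 without shControl 2 or without any 1 of the shTNC arrays, and 12 without shControl 3. The share of all genes in those fits was not computed. In 19 genes every shTNC array lay below every shControl array, a pattern seen in 12.4% of all genes. Without shTNC 3 there were 30 such genes, and 16.8% of all genes. Because the genes were selected with results of these arrays known, these counts describe the list and do not test it.

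**Figure D1:**
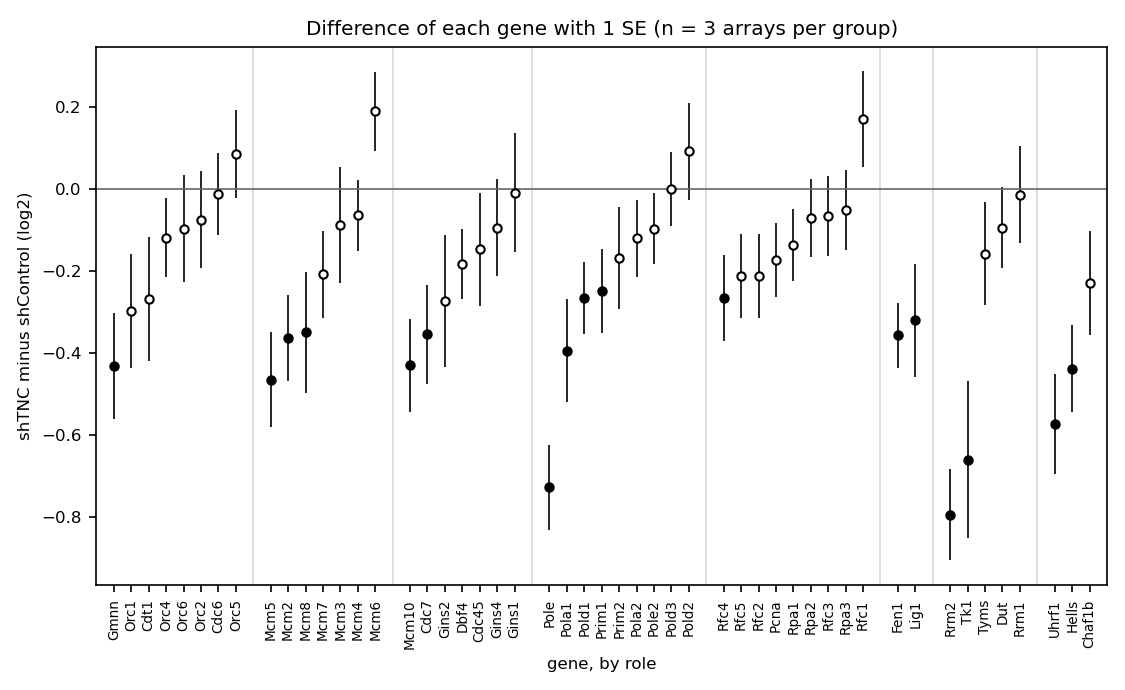
Values of shTNC minus shControl on the log2 scale (y axis) for the 50 genes, arranged by role along the x axis. Bars are 1 SE of the limma fit with 3 arrays per group, and filling marks genes at an unadjusted p under 0.05. Points of 46 genes lie below 0, from Rrm2 at -0.79 to Mcm6 at 0.19.

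The arrays of a group did not behave alike. Across the 50 genes, the median deviation from the gene's mean was 0.20 in shControl 2, 0.12 in shControl 3 and 0.024 in shControl 1, and it was -0.13, -0.15 and -0.034 in shTNC 1 to 3. The highest of the 6 values was on shControl 2 in 24 genes, where 32.7% of all genes peaked, and on shControl 3 in 16, where 14.7% did. The lowest was on shTNC 1 in 18 and on shTNC 2 in 19, against 16.8% and 16.1% of all genes. In total 42 genes had their highest value in a shControl array, as did 63.7% of all genes, and 42 their lowest in a shTNC array, as did 50.7%. The shControl 2 array also stood apart over the whole array, at -43.6 on the first principal component against -11.1 and 0.25 for the other controls. Without it, the median difference of the 50 genes was -0.15, with 12 lower at an unadjusted p under 0.05, where 5.26% of all genes were. In bulk RNA of sorted cells, fewer ECs in S phase and less of these transcripts per cell cannot be told apart.

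**Figure D2:**
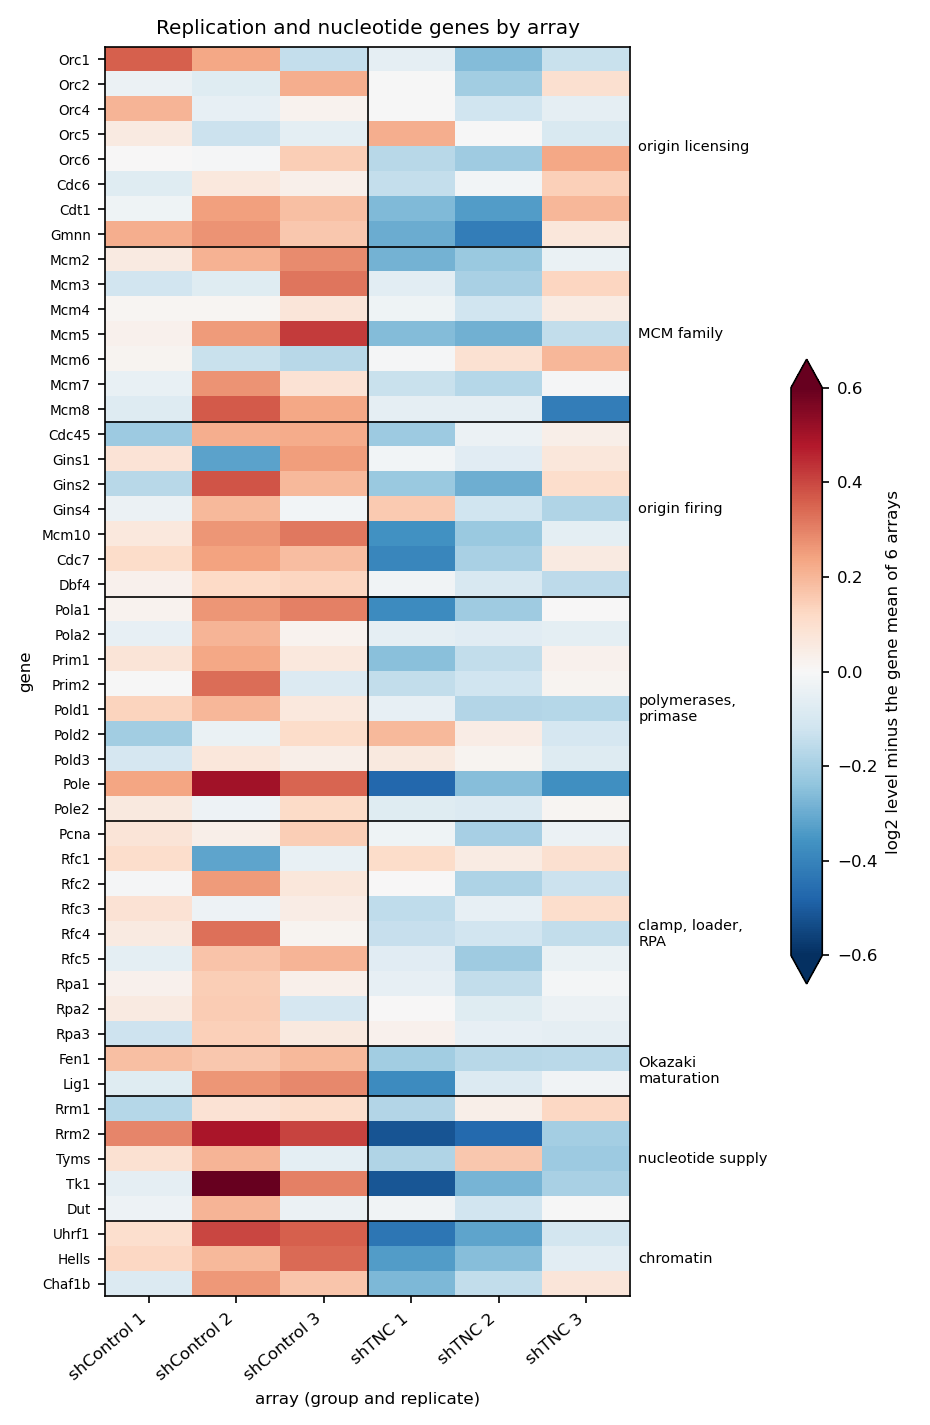
Deviation of each gene's log2 level from its mean over the 6 arrays, with genes grouped by role on the y axis and arrays on the x axis. Red marks values above the gene's mean and blue values below it, and shControl 2 holds the highest value in 24 of 50 genes.

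Promoter sequences were searched for letters known from cell cycle genes, and no motif was common to all of these genes. RefSeq (GRCm38.p6) gave a window from 250 bases before to 50 after the transcription start for 42 of the 50 genes. The letters TTTCCCGC, TTTGGCGC, TTTCGCGC and TTTGCCGC, forms of the site that E2F factors are known to bind, were searched on both strands. At least 1 of these forms lay in the window of 16 genes, or 38.1%, where 3.29% of 17492 protein-coding genes and 2.26% of 32851 windows of that length had one. The CCAAT letters, known as the site of NF-Y, were found in 24 genes, or 57.1%, against 42.3% of protein-coding genes, and TTTGAA, the core of the cell cycle homology region, in 6, or 14.3%, against 18.5%. The median difference was -0.27 in the 16 genes with an E2F form and -0.15 in the other 26. At an unadjusted p under 0.05, 7 of the former and 8 of the latter were lower. The order varied between motifs. With and without TTTCCCGC the medians were -0.088 and -0.18, and with and without CCAAT -0.14 and -0.22. They were -0.27 and -0.17 for TTTGGCGC, -0.30 and -0.16 for TTTCGCGC, and -0.27 and -0.17 for TTTGAA. Whether genes with and without a motif differed was not tested. Of the windows below, chosen after their values were seen, those of Mcm5 and Mcm6 show forms that overlap, those of Pola1 and Hells a single form, and that of Rrm2, the gene with the largest difference, none. Capitals mark E2F forms and CCAAT on either strand, and each window is printed 5′ to 3′ on the strand of its gene.
Mcm5, chr8:75109259-75109558, plus strand: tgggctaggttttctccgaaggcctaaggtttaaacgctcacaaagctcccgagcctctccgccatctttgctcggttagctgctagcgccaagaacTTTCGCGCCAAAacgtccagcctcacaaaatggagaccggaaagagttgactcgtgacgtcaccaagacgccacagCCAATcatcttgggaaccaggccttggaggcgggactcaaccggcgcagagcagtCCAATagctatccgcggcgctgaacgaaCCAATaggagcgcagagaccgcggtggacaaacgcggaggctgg
Mcm6, chr1:128359656-128359955, minus strand: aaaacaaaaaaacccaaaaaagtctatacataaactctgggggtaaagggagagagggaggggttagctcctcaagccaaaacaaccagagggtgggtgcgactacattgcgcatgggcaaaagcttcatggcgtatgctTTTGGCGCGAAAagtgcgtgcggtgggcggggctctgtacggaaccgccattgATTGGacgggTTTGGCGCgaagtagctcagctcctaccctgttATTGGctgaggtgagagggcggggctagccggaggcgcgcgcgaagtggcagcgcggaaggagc
Pola1, chrX:93632106-93632405, minus strand: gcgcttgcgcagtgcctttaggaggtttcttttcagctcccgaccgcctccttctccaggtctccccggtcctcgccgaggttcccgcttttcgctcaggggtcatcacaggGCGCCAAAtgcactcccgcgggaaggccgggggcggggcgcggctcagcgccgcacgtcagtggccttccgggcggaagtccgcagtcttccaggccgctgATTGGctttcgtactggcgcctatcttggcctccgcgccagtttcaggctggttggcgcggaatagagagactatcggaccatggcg
Hells, chr19:38930740-38931039, plus strand: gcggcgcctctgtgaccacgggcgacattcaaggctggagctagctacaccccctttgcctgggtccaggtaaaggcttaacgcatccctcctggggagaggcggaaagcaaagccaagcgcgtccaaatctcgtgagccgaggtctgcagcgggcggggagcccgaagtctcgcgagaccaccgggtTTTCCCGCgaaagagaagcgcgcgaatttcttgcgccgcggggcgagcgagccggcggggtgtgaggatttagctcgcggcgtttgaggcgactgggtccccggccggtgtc
Rrm2, chr12:24708004-24708303, plus strand: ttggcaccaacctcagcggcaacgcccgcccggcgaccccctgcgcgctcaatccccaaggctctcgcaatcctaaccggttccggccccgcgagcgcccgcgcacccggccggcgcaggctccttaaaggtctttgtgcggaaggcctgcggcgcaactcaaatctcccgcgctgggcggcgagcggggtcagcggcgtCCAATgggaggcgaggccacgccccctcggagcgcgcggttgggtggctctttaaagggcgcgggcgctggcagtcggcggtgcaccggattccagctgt
In Mcm5 the run TTTCGCGCCAAA joins TTTCGCGC with TTTGGCGC read on the other strand, and its reverse complement, TTTGGCGCGAAA, lies in Mcm6. These 12 bases occurred in 4 of 32851 windows, 2 of them of genes described here. Mcm6 has a further TTTGGCGC nearer to its start. A match of letters is a description and not a measured binding site.

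The gene with the largest difference, Rrm2, belongs to nucleotide supply. It encodes the small subunit of ribonucleotide reductase, which makes deoxynucleotides and whose level is known to rise in S phase. Rrm2 levels were 11.21, 11.41 and 11.32 in shControl 1 to 3 and 10.40, 10.45 and 10.71 in shTNC 1 to 3. Every shTNC array lay below every control, and shTNC 3 was the nearest to them. The difference was -0.79 ± 0.11 (SE, n = 3 per group), 1.73-fold lower, with a limma adjusted p of 0.18. The other Rrm2 probe sets differed by -0.71 and -0.61, and in the latter the groups overlapped. Rrm1, the large subunit, which is present throughout the cell cycle, differed by -0.014, with a 95% interval of -0.28 to 0.26, while its second probe set above background differed by -0.17 ± 0.09, with all shTNC arrays below all controls. The brightest Rrm2 value minus the brightest Rrm1 value of each array was lower in shTNC by -0.78 ± 0.07 (SE), without overlap. An exact permutation test of that difference gave 0.1, the smallest p that 3 against 3 arrays allow. Adjusted over the 6 pairs of partners compared, it was 0.15. With so few arrays the test cannot decide whether partners differed, and it adds nothing to the lack of overlap. Combinations of Rrm2 and Rrm1 probe sets above background were tried after seeing the data. Over these 6, the difference of Rrm2 minus Rrm1 ran from -0.78 to -0.44, without overlap in 5.

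Tk1 is the thymidine kinase of the salvage pathway, known to accumulate in S phase. Its values were 10.31, 11.10 and 10.66 in shControl and 9.85, 10.08 and 10.16 in shTNC. The groups did not overlap, but the controls spread widely, and shControl 1 lay only just above shTNC 3. The difference was -0.66 ± 0.19 (SE), with an adjusted p of 0.27 in limma. Tyms, thymidylate synthase, measured 8.11, 8.22 and 7.96 in shControl and 7.84, 8.18 and 7.80 in shTNC, so the groups overlapped, and it differed by -0.16 ± 0.13. A second Tyms probe set above background differed by -0.28 ± 0.13, with all shTNC arrays below all controls. Dut, which removes dUTP, differed by -0.094. Over the 5 genes of nucleotide supply the median was -0.16. At an unadjusted p under 0.05, 2 were lower, where 7.12% of all genes were.

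**Figure D3:**
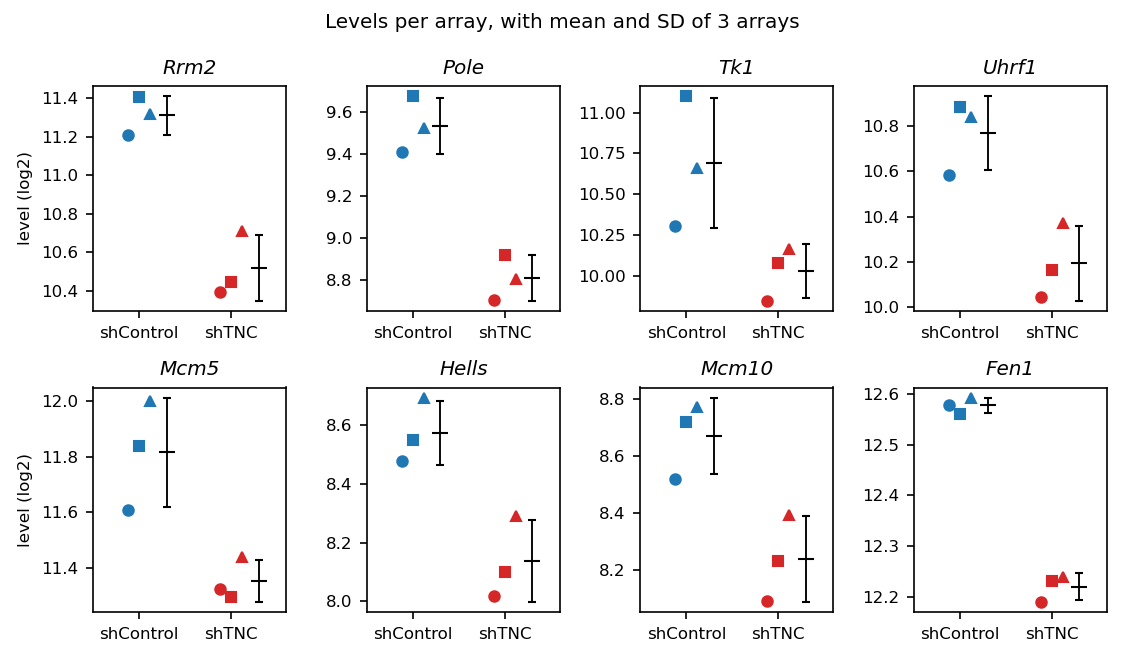
Log2 level (y axis, with its own range in each panel) of 8 genes on the 3 shControl and 3 shTNC arrays, with the mean ± SD of each group. Circles, squares and triangles are replicates 1, 2 and 3, and in none of the 8 genes do the groups overlap on the brightest probe set. These genes had the smallest p values of their roles, a choice that favours a lack of overlap. In 12.4% of all genes every shTNC array lay below every shControl array. A dimmer probe set of Rrm2 and one of Hells overlapped. Fen1 has controls between 12.56 and 12.59 and shTNC arrays between 12.19 and 12.24.

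Among DNA polymerases, Pole stood apart. It encodes the catalytic subunit of polymerase epsilon, which synthesizes the leading strand. Pole measured 9.41, 9.68 and 9.52 in shControl and 8.70, 8.92 and 8.81 in shTNC. All 3 shTNC arrays were clearly below the controls, and the difference was -0.73 ± 0.10 (SE, n = 3 per group), 1.65-fold lower, with a limma adjusted p of 0.18. Its partner Pole2 differed by -0.097. Relative to Pole2, Pole was lower by -0.63 ± 0.13, without overlap between groups (exact permutation p = 0.1, adjusted 0.15). Against the second, dimmer Pole2 probe set it was -0.42, and the groups overlapped.

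In polymerase alpha, which starts each new strand with primase, the order of the subunits depended on the probe sets. The catalytic subunit Pola1 measured 9.35, 9.59 and 9.63 in shControl and 8.94, 9.11 and 9.33 in shTNC, a difference of -0.39 ± 0.13 (adjusted p 0.29 in limma). Its groups were separated only narrowly, since shControl 1 and shTNC 3 were nearly level. The regulatory subunit Pola2 differed by -0.12, and Pola1 relative to Pola2 by -0.27 ± 0.13 (exact permutation p = 0.1, adjusted 0.15). Against the other Pola2 probe sets it was -0.19 and -0.22, with overlap, and with the mean of each gene's probe sets, 1 of them near background for Pola1, the order turned, at -0.14 for Pola1 and -0.16 for Pola2. Pold1, the catalytic subunit of polymerase delta on the lagging strand, had 10.43, 10.49 and 10.35 in shControl and 10.24, 10.11 and 10.12 in shTNC. It did not overlap between groups and differed by -0.27 ± 0.09 (adjusted p 0.30 in limma). A second, dimmer Pold1 probe set differed by -0.27 ± 0.11, and its groups overlapped. The accessory subunits Pold2 and Pold3 differed by 0.091 and -0.001, with 95% intervals of -0.18 to 0.36 and -0.21 to 0.21. The primase subunits Prim1 and Prim2 differed by -0.25 and -0.17, and their ratio did not separate the groups (exact permutation p = 0.5). Over these 9 genes the median was -0.17 and 4 were lower at an unadjusted p under 0.05, where 7.12% of all genes were.

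Fen1 and Lig1 finish the lagging strand, where Fen1 trims the flap of each Okazaki fragment and Lig1 seals the nick. Fen1 had the least spread of the named genes, with 12.58, 12.56 and 12.59 in shControl and 12.19, 12.23 and 12.24 in shTNC. These values came from an _x_at probe set, whose probes may also match other transcripts. The gap between the groups was far wider than either group, with a difference of -0.36 ± 0.08 (SE, n = 3 per group) and a limma adjusted p of 0.21. Leaving out each array in turn gave -0.37 to -0.34. A second, dimmer Fen1 probe set without that suffix differed by -0.25 ± 0.09, without overlap. Lig1 measured 10.44, 10.78 and 10.80 in shControl and 10.14, 10.43 and 10.49 in shTNC. Its groups overlapped, because shControl 1 was below shTNC 3, and the difference was -0.32 ± 0.14 (adjusted p 0.38 in limma), or -0.21 without shTNC 1. The median of the pair was -0.34.

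The MCM proteins form the helicase ring that opens the duplex. Mcm5 measured 11.61, 11.84 and 12.00 in shControl and 11.32, 11.29 and 11.44 in shTNC, and Mcm2 had 11.41, 11.56 and 11.64 against 11.07, 11.13 and 11.31. On these brightest probe sets all shTNC arrays of both subunits lay below all controls, with shControl 1 the lowest control. Mcm5 differed by -0.46 ± 0.12 (SE, n = 3 per group, adjusted p 0.23 in limma) and Mcm2 by -0.36 ± 0.10 (adjusted p 0.26). A second Mcm2 probe set differed by -0.26 ± 0.15, and its groups overlapped. Mcm8, a relative of the ring subunits with a role in recombination, had 8.69, 9.13 and 9.001 in shControl and 8.71, 8.71 and 8.35 in shTNC. There shControl 1 was level with shTNC 1 and 2, and the difference was -0.35 ± 0.15 (adjusted p 0.37 in limma), or -0.23 without shTNC 3. Mcm7 and Mcm3 differed by -0.21 and -0.088. The median of the 7 genes was -0.21, and 3 were lower at an unadjusted p under 0.05, where 7.12% of all genes were.

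The probe sets of Mcm6 and Mcm4 disagreed, as was noticed after their values were seen. The brightest Mcm6 probe set, 1438852_x_at, whose suffix marks probes that may also match other transcripts, differed by 0.19 ± 0.10, with shTNC 3 the highest array. The other above background, 1416251_at, differed by -0.30 ± 0.09 without overlap between groups, so the direction of Mcm6 depended on the probe set. For Mcm4, 1416214_at differed by -0.064 ± 0.086 and 1436708_x_at by 0.31 ± 0.10, the latter higher in all shTNC arrays. Both Mcm5 probe sets above background were lower, at -0.46 and -0.42. Of 33 genes with several probe sets above background, 25 had all of them lower and 8 were mixed, namely Orc1, Orc2, Mcm3, Mcm4, Mcm6, Prim2, Rfc1 and Rpa1. In all, 87 of 97 such probe sets were lower in shTNC, against 52.7% of all single-symbol probe sets above background. Without _x_at and _s_at probe sets the median of the 50 genes was -0.19. At an unadjusted p under 0.05, 19 were then lower, where 7.18% of all genes were.

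**Figure D4:**
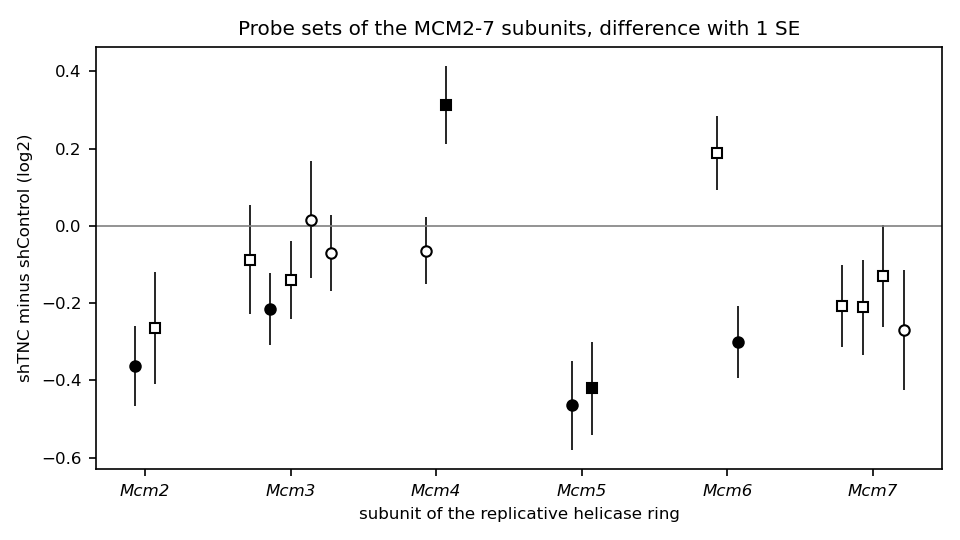
Values of shTNC minus shControl on the log2 scale (y axis) with 1 SE for every probe set above background of the 6 ring subunits Mcm2 to Mcm7 (x axis, brightest first). Squares mark _x_at and _s_at probe sets and filled symbols an unadjusted p under 0.05. Those of Mcm4 and Mcm6 lie on both sides of 0, while those of Mcm5 lie at -0.46 and -0.42.

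Origin firing turns the loaded ring into a moving helicase. Mcm10, which is needed for that activation, measured 8.52, 8.72 and 8.77 in shControl and 8.09, 8.23 and 8.39 in shTNC. The groups did not overlap, and it differed by -0.43 ± 0.11 (SE; adjusted p 0.24 in limma), with its other probe sets at -0.44 and -0.29. The kinase Cdc7 had 9.92, 10.05 and 10.00 in shControl and 9.42, 9.62 and 9.87 in shTNC, where shTNC 3 was close to shControl 1, and differed by -0.35 ± 0.12 (adjusted p 0.30). Dbf4, which activates Cdc7, had 9.72, 9.82 and 9.82 against 9.68, 9.60 and 9.54, and differed by -0.18 ± 0.09. The groups of Dbf4 were separated by less than their own spread. The difference of Cdc7 relative to Dbf4, -0.17 ± 0.17, overlapped between groups (exact permutation p = 0.4). The helicase cofactors Cdc45 and Gins1, Gins2 and Gins4 differed by -0.15, -0.010, -0.27 and -0.095. Over the 7 genes the median was -0.18 and 2 were lower at an unadjusted p under 0.05, where 7.12% of all genes were.

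In origin licensing, geminin had the largest difference among the brightest probe sets. Gmnn, which encodes geminin, measured 9.31, 9.36 and 9.25 in shControl and 8.79, 8.68 and 9.16 in shTNC. The shTNC 3 array lay just below the controls and the other shTNC arrays well below. The difference was -0.43 ± 0.13 (SE, n = 3 per group; adjusted p 0.27 in limma). Cdt1, the loader that geminin blocks, had 10.94, 11.21 and 11.15 in shControl and 10.70, 10.63 and 11.17 in shTNC, with shTNC 3 among the controls, and differed by -0.27 ± 0.15. Gmnn relative to Cdt1 was lower by -0.16 ± 0.09 (exact permutation p = 0.1, adjusted 0.15). The second Cdt1 probe set differed by -0.43 ± 0.15, and Gmnn relative to it by -0.0028, with overlap, so the difference between the partners depended on the probe set. Orc1, the subunit of the origin recognition complex that is known to vary with the cell cycle, had 8.14, 8.02 and 7.64 against 7.73, 7.53 and 7.66, and differed by -0.30 ± 0.14, while its second probe set differed by 0.29 ± 0.17. The brightest probe sets of Orc2, Orc4, Orc5 and Orc6 lay between -0.12 and 0.086, with a dimmer one of Orc2 at -0.41 ± 0.17, and Cdc6, which recruits the helicase, differed by -0.013, with a 95% interval of -0.24 to 0.22. The median of these 8 genes was -0.11, and 1 was lower at an unadjusted p under 0.05, where 7.12% of all genes were. A count of 1 in 8 is near that share.

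The brightest probe sets of the clamp, its loader and the single-strand binding proteins differed by -0.27 to 0.17. Pcna, the sliding clamp, differed by -0.17 ± 0.09, and its shTNC arrays, at 12.99, 12.81 and 12.98, lay just below the controls at 13.09, 13.05 and 13.16. Of the loader subunits, Rfc4 had 9.57, 9.85 and 9.53 in shControl and 9.38, 9.40 and 9.37 in shTNC. Its shTNC arrays were nearly identical, and shControl 2 was the highest array by a wide margin. Rfc4 differed by -0.27 ± 0.10 (adjusted p 0.35 in limma), or by -0.17 without shControl 2. A second Rfc4 probe set, slightly dimmer, differed by -0.35 ± 0.09 (adjusted p 0.24 in limma), without overlap between groups. Rfc2 measured 10.76, 11.03 and 10.84 against 10.77, 10.58 and 10.64, and Rfc5 measured 10.01, 10.23 and 10.27 against 10.00, 9.85 and 10.03. Both differed by -0.21 ± 0.10, with groups that overlapped. Rfc1, the large subunit, was higher by 0.17 ± 0.12, with a low value of 10.70 in shControl 2. Its other probe sets above background were lower, by -0.094 ± 0.10 and -0.026 ± 0.11, and the first was almost as bright. The direction of Rfc1 thus depended on the probe set. The replication protein A subunits Rpa1, Rpa2 and Rpa3 differed by -0.14, -0.070 and -0.051, while a second Rpa1 probe set was higher by 0.21 ± 0.09. Over the 9 genes the median was -0.14 and 1 was lower at an unadjusted p under 0.05, where 7.12% of all genes were. A count of 1 in 9 is near that share.

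Chromatin factors that follow the fork had the lowest group median, -0.44 over 3 genes. Uhrf1, which recruits the maintenance DNA methyltransferase to newly copied DNA, measured 10.58, 10.88 and 10.84 in shControl and 10.05, 10.16 and 10.37 in shTNC. Hells, a chromatin remodeller needed for DNA methylation, had 8.48, 8.55 and 8.69 against 8.02, 8.10 and 8.29. In these brightest probe sets neither gene overlapped between groups, and in both shTNC 3 was the highest of its group. Uhrf1 differed by -0.57 ± 0.12 (SE, n = 3 per group; adjusted p 0.20 in limma), with a second probe set at -0.58 ± 0.10, and Hells by -0.44 ± 0.11 (adjusted p 0.23). A second Hells probe set above background differed by -0.28 ± 0.13, with groups that overlapped. Chaf1b, a subunit of the histone chaperone CAF-1, had 9.32, 9.67 and 9.57 against 9.14, 9.26 and 9.48. Its groups overlapped, and it differed by -0.23 ± 0.13. With the mean of all probe sets in place of the brightest, the group median was -0.21. This was the value of Hells, whose mean included a probe set near background.

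Among the remaining genes of these pathways, counts can be read against the 58.3% of all genes with a lower mean and the 7.12% lower at an unadjusted p under 0.05. Of 36 other replication and fork genes, 28 had a lower mean and 11 were lower at an unadjusted p under 0.05, with a median of -0.11. Dscc1, which helps to load the clamp for sister chromatid cohesion, differed by -0.48 ± 0.11, and Ccne1, the cyclin E1 gene that drives entry into S phase, by -0.45 ± 0.13. Of 28 other nucleotide synthesis genes, 19 were lower, 3 at that p, with a median of -0.092, so both counts were near the shares of all genes. Atic, of purine synthesis, differed by -0.42 ± 0.09 and Mthfd2, of mitochondrial folate metabolism, by -0.41 ± 0.11. Of 13 other chromatin replication genes, 11 were lower, 3 at that p, with a median of -0.14, and the histone chaperone Asf1b and Tonsl, which acts at forks, differed by -0.54 ± 0.11 and -0.32 ± 0.10. No gene of the 3 lists was higher at an unadjusted p under 0.05, and none passed an adjusted p of 0.05 in limma. Whether these lists differed from the 50 genes was not tested.

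Genes of mitosis had a larger median difference. All 24 mitotic genes had a lower mean in shTNC, 21 at an unadjusted p under 0.05 and 0 at an adjusted p of 0.05 in limma. Of all genes, 58.3% had a lower mean and 7.12% were lower at that unadjusted p. The mitotic genes had a median of -0.62 and a range from -0.87 to -0.31. Kif11 and Prc1, of the spindle, differed by -0.61 ± 0.09 and -0.73 ± 0.13. The highest array was shControl 2 in 24 of 24, with a median deviation of 0.62, while shControl 1 was at -0.066. Without shControl 2 the mitotic median was -0.47. The difference between the lists was not tested.

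**Figure D5:**
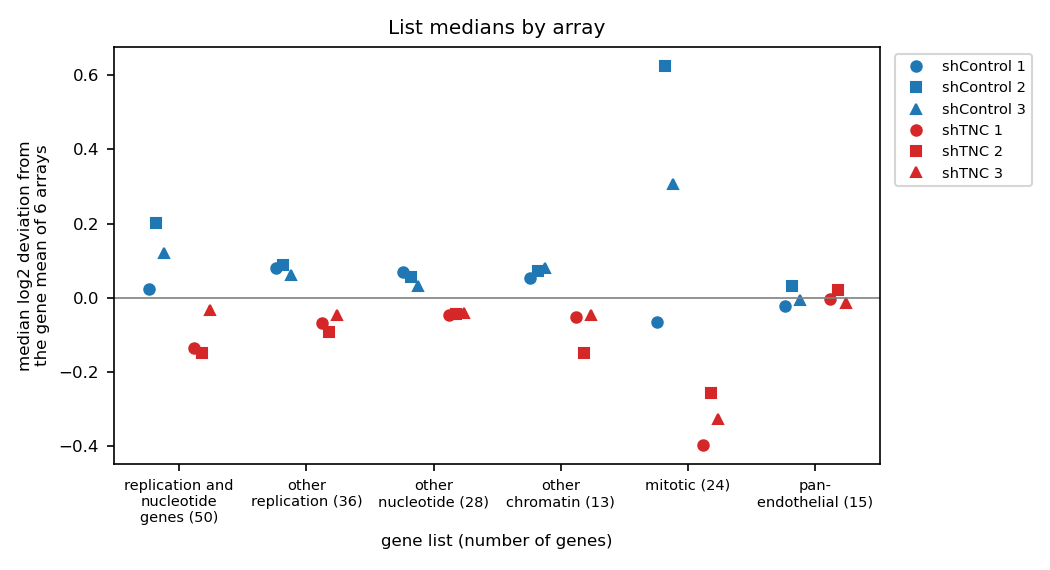
Median deviation of each list's genes from their mean over the 6 arrays (log2, y axis), with 1 point per array, for the 50 genes of replication and nucleotide synthesis and 5 other lists (x axis). The shControl 1 array lies at 0.024 for the 50 genes and at -0.066 for the mitotic genes, and shControl 2 at 0.20 and 0.62.

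Markers of cell identity were compared on the same arrays. The median difference of 15 pan-endothelial genes was 0.00084, with 0 at an unadjusted p under 0.05 and 0 past an adjusted p of 0.05 in limma. Their mean level was 13.45 to 13.49 in shControl and 13.46 to 13.48 in shTNC. Pecam1, the CD31 gene, differed by -0.028 ± 0.081 and the junction gene Cdh5 by -0.043 ± 0.080, while Emcn and Ptprb, with the smallest p of that list, differed by -0.16 and 0.11. Of 19 macrophage and monocyte markers, 14 had a lower mean, where 58.3% of all genes did. At an unadjusted p under 0.05, 5 were lower, where 7.12% of all genes were. The median of this list was -0.12, with a mean level of 8.66 to 8.82 in shControl and 8.42 to 8.71 in shTNC. Its highest array was shControl 2 in 4 genes, and its median deviation in shTNC 3 was 0.019. Mrc1, a mannose receptor gene, differed by -0.62 ± 0.14 and Cd14 by -0.32 ± 0.10, whereas Ptprc, the CD45 gene used to exclude cells, differed by 0.32 ± 0.25. Chil3 had the largest difference of the list, at -0.69 ± 0.21. Of the 19 markers 15 lay above background, with means over all arrays of 12.16 for Lyz2, 10.58 for Cd14 and 9.93 for Mrc1. RNA of these markers was thus not absent. Itgam, the CD11b gene, and Adgre1 were among those near background on average. The part of these cells in the results was not tested.

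Other lists held markers of cells that the sort should remove or that NSG mice lack. Of the 9 lymphocyte genes, 7 were near background and 1 was lower at an unadjusted p under 0.05, where 7.12% of all genes were. Mean levels were 7.10 to 7.22 in shControl and 7.05 to 7.08 in shTNC, with Cd3e and Cd79b at -0.20 ± 0.09 each. Neutrophil markers had a median of 0.017 over 8 genes, with Cxcr2 and Ngp, both near background, at 0.21 and 0.28. Epithelial markers had a median of 0.012 over 12, with Foxj1, near background, at -0.22, Hopx at 0.16 and Epcam at -0.059 ± 0.14. Mean levels of this list were 9.10 to 9.80 in shControl and 8.94 to 10.08 in shTNC. Epithelial RNA was thus not absent, with Sftpc at a mean of 13.01 over all arrays. Scgb1a1 ranged from 6.84 in shControl 1 to 12.04 in shControl 2. Fibroblast markers had a higher median of 0.19 over 10 genes, with Dcn and Mfap4 at 0.44 and 0.74 and Pdgfra at -0.012 ± 0.25, but mean levels of 9.56 to 10.02 in shControl and 9.90 to 10.36 in shTNC overlapped. Erythroid markers had a median of -0.061 over 5, with Alas2 at 0.52 and Slc4a1 at -0.38. Their part in the results was not tested either.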

How the data were processed

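Per the labels, 2 ng of total RNA per sample were labelled with biotin for Affymetrix mouse arrays. The authors normalized raw files by RMA in Chipster, as their methods state, and deposited a log2 value for each probe set on each array. Many low values are tied, and whether the deposited values are those RMA values was not settled here. Raw array files and detection calls were not used here, so depth is not defined and signal against background stands in its place. The background level, 7.48, was the 95th percentile over 44 probe sets of olfactory receptors, and the means of 67.2% of all probe sets exceeded it.

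All 45101 probe sets were fitted without a filter in limma 3.58.1 (R 4.3.3, lmFit and eBayes, two-sided, Benjamini-Hochberg over all probe sets). The platform annotation gave 1 symbol to 34958 probe sets, several to 932 and none to 9211, and the brightest single-symbol probe set stood for a gene. Of 246 list entries 229 were matched, and the others were not analysed here. Levels were not compared between genes, because probe sets differ in brightness for technical reasons. Pairs of partner genes were compared by the difference of their log2 values on each array with an exact two-sided permutation test. Its p cannot fall below 0.1 with 3 arrays per group, so it cannot decide whether partners differed. Values in every array were given for the 3 genes of each role with the smallest unadjusted p, and differences for the gene nearest to 0 and for the 2 genes of each other list with the smallest p. Further genes, Pcna among them, were chosen after their values were seen. Members and lists were chosen with earlier results of these data known. The steps were tested on simulated data. Promoter windows came from RefSeq (GRCm38.p6), and 8 genes without a window were left out of the motif counts.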

Additional observations from a re-analysis of the deposited data

How the results depend on the processing

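Of 15 alternatives, 9 changed the processing and 6 left out an array. In these, the members' median stayed between -0.21 and -0.15, and the number lower at an unadjusted p under 0.05 between 12 (without shControl 2 or without shTNC 1) and 22 (without shControl 1). The shares of all genes lower at that p were 5.26% without shControl 2, 4.69% without shTNC 1 and 6.7% without shControl 1. At an adjusted p under 0.25 the 7 genes became 12 without probe sets near background and 3 with the replicate number as a block. With an array left out they ranged from 0, without shControl 2 or any 1 of the shTNC arrays, to 12, without shControl 3. The share of all genes at that adjusted p was not computed for the alternatives. With an intensity trend and robust eBayes, 1 member, Rrm2, passed an adjusted p of 0.05 (0.049), as did 5 of all 18194 genes, Rrm2 included. In that fit 1 member, Mcm6, was higher at an unadjusted p under 0.05. Genes without overlap numbered 20 to 30 with an array left out, against 19. Fewer arrays overlap less often by construction, and the share of all genes was 16.7% to 22.5% in these fits, against 12.4%. The count was 30 without shTNC 3, where the share of all genes was 16.8%.

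The median of polymerases ranged from -0.25 (without shControl 3) to -0.13, that of nucleotide supply from -0.28 (without shTNC 2) to -0.095, and that of chromatin factors was -0.21 with the mean of a gene's probe sets. Other role medians moved by less than the spread between replicates. Signs turned with array weights for Cdc6 (0.014), Pold3 (0.020) and Rrm1 (0.036), with the mean of probe sets for Mcm4 (0.12), Mcm6 (-0.078) and Rpa1 (0.038), and without _x_at and _s_at probe sets, an alternative chosen after seeing the data, for Mcm6 (-0.30). With an array left out, signs turned for Cdc6 (-0.086 to 0.056), Gins1 (-0.17 to 0.11), Mcm3 (-0.17 to 0.050), Orc2 (-0.14 to 0.015), Orc5 (-0.0019 to 0.15), Pold3 (-0.052 to 0.037), Rpa3 (-0.13 to 0.0087), Rrm1 (-0.10 to 0.071), Epcam (-0.18 to 0.050), Ngp (-0.052 to 0.46) and Pdgfra (-0.27 to 0.18). The cause was not tested.

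Arrays with the same replicate number deviated from their group means with correlations of -0.085, 0.041 and 0.10, so the numbers were not taken to pair the samples. The replicate block left 16 genes lower at an unadjusted p under 0.05, against 17, and did not change the median. With it 6.86% of all genes were lower at that p, against 7.12%. With 3 arrays per group, the standard errors of the 50 genes, 0.078 to 0.19, limit what a difference of the median size can show.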
